A study of Rattus norvegicus with 11 samples.

Results

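The circadian clock is a feedback loop of transcription factors that runs in most cells of the body, the gut included, and keeps them in step with day and night. ARNTL (BMAL1) pairs with CLOCK, or with its relative NPAS2, and switches on the genes of the PER and CRY proteins, which then return to silence the pair. A second loop runs through NR1D1 (REV-ERB alpha), which the same pair switches on and which represses Arntl, and DBP is an output of the pair that carries its rhythm to further genes through D-box sequences. In tissues with a running clock, Arntl and its targets are therefore known to peak at opposite phases of the day.

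Here 10 clock genes were followed in the ileum, namely the activators Arntl, Clock and Npas2, the repressors Per1, Per2, Per3, Cry1 and Cry2, the second loop gene Nr1d1 and the output gene Dbp. They were taken by symbol from the deposited tables, and 10 of 10 were found among the 24481 genes with reads and among the 24205 genes with FPKM, the length- and depth-normalised values that allow levels to be compared between genes. RNA was sequenced from the ileum of SD rats aged 6 to 8 weeks in 3 groups, with 3 control, 4 SAP (severe acute pancreatitis) and 4 JZL184 libraries. Pancreatitis was induced by retrograde injection of 3% sodium taurocholate into the pancreatic duct. At 24 h after surgery the rats were assigned to groups, the JZL184 group was given 10 mg/kg of JZL184, an inhibitor of the 2-arachidonoylglycerol degrading enzyme MAGL, and the control and SAP groups were given vehicle, all by intraperitoneal injection. All rats were killed 24 h later. The sources used here give neither the hour of the day at which each rat was killed nor whether control rats had a sham operation. The treatment labels name a control plasmid for the control rats and the sample titles name oil for the SAP rats, where the protocol describes vehicle for both.

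Between 26341299 and 33847135 reads per library lay on genes, and the 10 clock genes had between 98 and 2959 reads each in a library. Control libraries 1 and 2 were nearly the same library, with a chi-square of 2.81 per gene against 77.48 to 563.03 for all other pairs within a group. They were therefore combined and counted as 1 sample, which left n = 2 in the control group. On the first principal component SAP libraries 1 and 2 lay at 1 end, at 90.8 and 92.5, and control libraries 1 and 2 at the other, at -93.6 and -92.5. The remaining libraries lay between -47.6 and 43.8. SAP library 2 also had 20 reads on Y-linked genes against 1222 to 4665 in the other libraries, although the study used male rats. It had 7826 reads on the sex-linked gene LOC100911498, against 0 to 56 in the others. Its sex was thus in doubt, and it was kept in its labelled group. The labels name intestinal epithelial cells, but smooth muscle genes summed to 239.7 to 1594.6 FPKM and T cell genes to 35.9 to 114.4 FPKM, so the samples held the tissue and not the epithelium alone. The sources used here do not say that every library came from a separate rat, so p-values measure the spread between these samples, which may be technical.

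The clock genes differed widely in level in the control group. Dbp was the most abundant, at 44.8 ± 16.6 FPKM (SD, n = 2), followed by Nr1d1 at 20.5 ± 3.17 FPKM. Cry1 and Cry2 followed at 5.24 ± 2.12 and 5.12 ± 0.01 FPKM, which were not apart beyond their spread. Per2 stood at 2.96 ± 0.18 FPKM, Per1 at 1.62 ± 0.13 FPKM and Per3 at 0.89 ± 0.01 FPKM. The activators lay at the bottom of the order, with Arntl at 1.05 ± 0.24, Npas2 at 0.67 ± 0.20 and Clock at 0.47 ± 0.14 FPKM, and Arntl and Per3, like Npas2 and Clock, were not apart beyond their spread. In the SAP group Arntl took the place below Nr1d1, at 5.45 ± 4.40 FPKM (SD, n = 4), but with a spread that reached Cry1 (5.08 ± 1.03), Per2 (3.51 ± 1.90) and Npas2 (3.31 ± 3.51). In the JZL184 group Per1 stood above Per2, at 4.97 ± 1.83 against 4.04 ± 1.83 FPKM (SD, n = 4), within their spread.

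**Figure D1:**
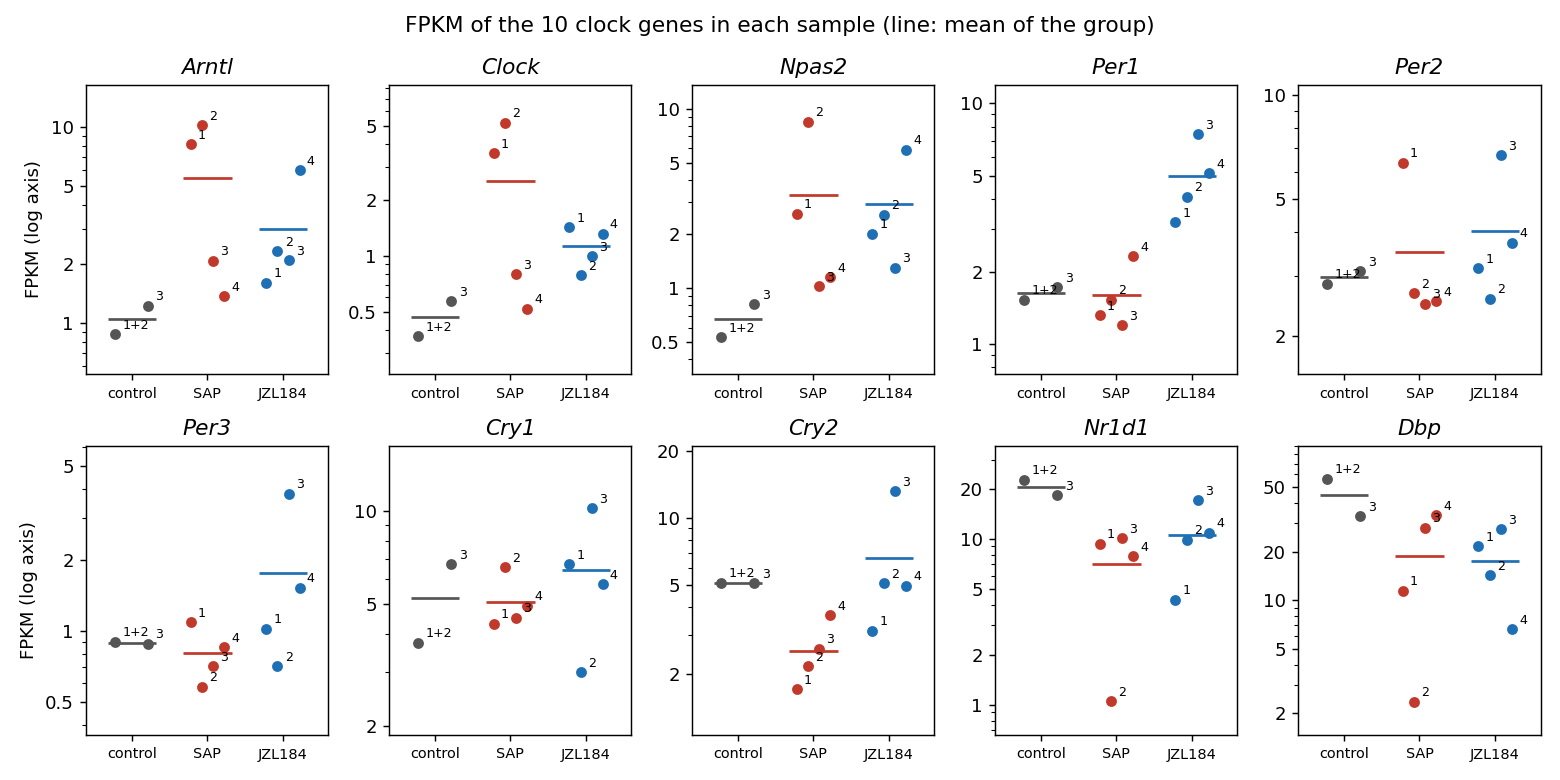
FPKM (log axis) of each of the 10 clock genes by group, with 1 point per sample, numbered by library (control libraries 1 and 2 combined), and a line at the group mean. SAP libraries 1 and 2 hold the highest Arntl and Clock of all samples, library 2 the lowest Nr1d1 and Dbp, and all 4 JZL184 samples lie above all SAP samples in Per1.

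The activators were low in the controls and high in part of the SAP libraries. Arntl stood at 0.875 FPKM in the combined control sample and 1.22 in control library 3. It stood at 8.13, 10.23, 2.07 and 1.37 FPKM in SAP libraries 1 to 4 and at 1.6, 2.32, 2.08 and 6.02 FPKM in JZL184 libraries 1 to 4. All SAP and all JZL184 samples were thus above both control samples, but SAP libraries 1 and 2 and JZL184 library 4 were far above the rest of their groups. Clock, the partner of ARNTL, had the same high libraries among the SAP samples. It stood at 0.37 and 0.57 FPKM in the control samples, at 3.58, 5.20, 0.80 and 0.52 FPKM in SAP libraries 1 to 4 and at 1.43, 0.79, 1.0 and 1.32 FPKM in JZL184 libraries 1 to 4. SAP library 4 lay between the control samples, whereas the JZL184 samples all lay above them. Npas2, which can take the place of CLOCK, was at 0.53 and 0.81 FPKM in the control samples, at 2.59, 8.47, 1.02 and 1.15 FPKM in SAP libraries 1 to 4 and at 2.01, 2.56, 1.30 and 5.91 FPKM in JZL184 libraries 1 to 4. Both disease groups lay above the controls, and Npas2 spanned 16-fold from its lowest to its highest sample, against 14.1-fold for Clock and 11.7-fold for Arntl.

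The promoter of Arntl is shown because it holds a ROR element, the site type through which NR1D1 represses and ROR proteins activate this gene. RefSeq (GRCr8, where Arntl is listed as Bmal1) gives the following 250 bases before the transcription start on the plus strand, chr1:176766078-176766327. The exact match to the ROR element pattern searched is in capitals, 20 bases before the start.
Arntl: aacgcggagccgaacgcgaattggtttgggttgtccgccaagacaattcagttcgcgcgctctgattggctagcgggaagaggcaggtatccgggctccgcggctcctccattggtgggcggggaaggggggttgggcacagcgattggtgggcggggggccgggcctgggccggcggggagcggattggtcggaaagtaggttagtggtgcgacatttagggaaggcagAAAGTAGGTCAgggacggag

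The second loop and output genes had the opposite order, highest in the controls. Nr1d1 stood at 22.76 and 18.27 FPKM in the control samples, at 9.34, 1.05, 10.07 and 7.82 FPKM in SAP libraries 1 to 4 and at 4.29, 9.88, 17.10 and 10.87 FPKM in JZL184 libraries 1 to 4. No SAP or JZL184 sample reached the controls, and SAP library 2 was lowest by far, with 98 reads. Dbp stood at 56.48 and 33.05 FPKM in the control samples, at 11.42, 2.35, 28.11 and 33.63 FPKM in SAP libraries 1 to 4 and at 21.64, 14.30, 27.60 and 6.59 FPKM in JZL184 libraries 1 to 4. The JZL184 samples were all below the controls, while SAP library 4 lay between them. Over all samples Dbp spanned 24.0-fold and Nr1d1 21.7-fold, the widest ranges of the 10 genes.

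The repressors varied less among the SAP samples, by 1.52- to 2.55-fold from lowest to highest against 7.47- to 14.3-fold for the other 5 clock genes, and several were highest in the JZL184 group. Per1, a rapidly inducible repressor, stood at 1.53 and 1.72 FPKM in the control samples, at 1.32, 1.53, 1.20 and 2.32 FPKM in SAP libraries 1 to 4 and at 3.21, 4.09, 7.45 and 5.12 FPKM in JZL184 libraries 1 to 4. Control and SAP samples overlapped, and all JZL184 samples lay above both. Cry2, a partner of the PER proteins, stood at 5.12 and 5.11 FPKM in the control samples, at 1.71, 2.17, 2.6 and 3.66 FPKM in SAP libraries 1 to 4 and at 3.13, 5.11, 13.17 and 4.98 FPKM in JZL184 libraries 1 to 4. All SAP samples were below the controls, and JZL184 library 1 fell within the SAP range. Per3 was between 0.88 and 0.90 FPKM in the control samples, between 0.58 and 1.09 in the SAP samples and at 1.02, 0.71, 3.80 and 1.52 FPKM in JZL184 libraries 1 to 4, so that the groups overlapped. Cry1 lay between 3.74 and 6.74 FPKM in the control, 4.31 and 6.57 in the SAP and 3.00 and 10.21 in the JZL184 samples, and these ranges overlapped. Per2 was the steadiest of the 10 genes, with a range of 2.68-fold over all samples, and was at 2.84 and 3.09 FPKM in the control samples, at 6.36, 2.67, 2.49 and 2.53 FPKM in SAP libraries 1 to 4 and at 3.15, 2.57, 6.68 and 3.74 FPKM in JZL184 libraries 1 to 4. JZL184 library 3 was the highest sample of all in Per1, Per2, Per3, Cry1 and Cry2 alike. The same library had the lowest sum of epithelial marker genes of all samples (5200.3 FPKM, against 7425.2 to 19689.5 in the others). Its sum of smooth muscle genes was the highest, but close to that of the combined control sample (1594.6 against 1504.4 FPKM). The part of tissue composition in these values was not tested.

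The promoter of Per2 is shown because it holds a D-box, the sequence through which DBP acts and its opponent NFIL3 competes. RefSeq (GRCr8) gives the 250 bases before the start on the minus strand, chr9:99496994-99497243, with the D-box in capitals, 192 bases before the start.
Per2: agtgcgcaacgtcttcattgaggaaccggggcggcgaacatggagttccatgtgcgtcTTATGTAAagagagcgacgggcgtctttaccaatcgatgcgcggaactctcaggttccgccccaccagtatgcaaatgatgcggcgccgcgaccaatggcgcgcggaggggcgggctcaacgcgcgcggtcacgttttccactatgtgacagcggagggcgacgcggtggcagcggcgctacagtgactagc

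Promoters were found in the RefSeq table for 7 of the 10 clock genes, all but Clock, Cry1 and Nr1d1, and were searched from 250 bases before to 50 after the start on both strands. The motifs were the E-box CACGTG, the site of the ARNTL pair, the D-box as TTATGTAA or TTACGTAA, the cAMP response element TGACGTCA and the ROR element. Of 33469 rat promoters of this length, 6.42% held the E-box, 1.01% the D-box, 1.83% the cAMP response element and 0.356% the ROR element. The ROR element of Arntl and the D-box of Per2 were the only exact matches in the 7 promoters, and the letters searched were not in the windows of Npas2, Per1, Per3, Cry2 and Dbp. Near matches were not counted, such as aaagtaggtta in the printed Arntl bases (TTA where the ROR pattern ends in TCA) and cacgtt in those of Per2. Sites outside the window were not searched, so the search cannot show that a gene lacks a site.

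The comparison of SAP with control rats sets the ileum in pancreatitis against that of the controls. The hour of killing and a sham operation of the controls are not given, and their part in the differences was not tested. Arntl, Clock and Npas2 were higher in the SAP group by 2.16 ± 0.82 (4.46-fold), 2.20 ± 0.92 (4.59-fold) and 2.08 ± 0.88 (4.23-fold) on the log2 scale (estimate ± SE, n = 4 SAP and 2 control samples). Cry2, Nr1d1 and Dbp were lower by a log2 fold change of -1.16 ± 0.40, -1.69 ± 0.72 and -1.37 ± 0.87. Log2 fold changes of Per1 (-0.17 ± 0.39), Per2 (0.06 ± 0.43), Per3 (-0.31 ± 0.36) and Cry1 (-0.20 ± 0.34) were within 1 SE of 0. In these tissue samples fewer cells of a type and less RNA per cell cannot be told apart. The quasi-likelihood test of edgeR called 0 of the 10 clock genes (Benjamini-Hochberg adjusted p under 0.05 and a change beyond 2-fold in either direction), as it called 0% of the 16029 genes tested. The edgeR adjusted p was 0.459 for Arntl, Clock, Npas2, Cry2 and Nr1d1 and 0.473 for Dbp. At an unadjusted p below 0.05 it counted 5 of 10 clock genes (Arntl, Clock, Npas2, Cry2 and Nr1d1) against 9.09% of all genes, and DESeq2 called 0 of 10 against 1.23%. The samples did not overlap in CPM (counts scaled to library size) for 2 of 10 clock genes that were higher (Arntl and Npas2, against 11.3% of all genes) and 2 that were lower (Cry2 and Nr1d1, against 11.9%). The count without overlap was 7 without SAP library 4, against 42.6% of all genes, and 7 without control library 3, against 54.9%. It was 6 without SAP library 1, against 25.2%, where all samples gave 4 against 23.2%. The median absolute log2 fold change of the 10 genes was 1.26, against 0.50 over all genes tested.

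These differences rested to a large part on SAP libraries 1 and 2. Without both, the log2 fold change was 0.65 for Arntl, 0.42 for Clock, 0.65 for Npas2 and -0.61 for Dbp, and without SAP library 2 alone it was 1.10 for Npas2. Without both it was -1.28 for Nr1d1 (edgeR adjusted p = 0.0776) and -0.76 for Cry2. Clock, with a length 3.60 times that of the median gene, was 1.46 higher on the log2 scale when each sample's trend on gene length was removed, and Npas2 (2.36 times the median length) 1.51 higher. SAP libraries 1 and 2 also had the lowest sums of epithelial genes in the group, 7425.2 and 7541.8 FPKM against 11180.9 and 14962.5 in SAP libraries 3 and 4 and 18090.9 and 19689.5 in the controls. Neutrophil genes summed to 82.1, 10.4, 49.8 and 8.3 FPKM in SAP libraries 1 to 4, against 1.1 and 2.3 in the controls. Macrophage genes summed to 20.9, 42.5, 26.7 and 14.6 FPKM in SAP libraries 1 to 4, against 8.4 and 10.7 in the controls. The part of these cells in the clock gene values was not tested. Control libraries 1 and 2, nearly the same library, were also taken as separate samples, which treats them as independent. In that setting DESeq2 called 5 of the 10 genes (Arntl, Clock and Npas2 higher, Cry2 and Nr1d1 lower), against 8.46% of genes.

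The comparison of JZL184 with SAP rats sets the treated against the untreated diseased ileum, and uses the same SAP samples as the comparison with the controls. Here too the part of the hour of killing was not tested. Per1 was higher in the JZL184 group by 1.77 ± 0.36 on the log2 scale (3.41-fold, SE, n = 4 and 4), Cry2 by 1.49 ± 0.47 (2.81-fold) and Per3 by 1.25 ± 0.48 (2.37-fold). The other repressors Cry1 and Per2 differed by 0.47 ± 0.33 and 0.37 ± 0.38, and Nr1d1 by 0.71 ± 0.63. The activators Arntl and Clock differed by -0.60 ± 0.64 and -0.92 ± 0.60, and Npas2 and Dbp by 0.09 ± 0.68 and -0.05 ± 0.71, all less than 2 SE from 0. Here too edgeR called 0 of 10 clock genes and 0% of 15308 genes tested, with an adjusted p of 0.0851 for Per1, 0.140 for Cry2 and 0.190 for Per3. At an unadjusted p below 0.05 there were 3 of 10 clock genes (Per1, Per3 and Cry2) against 21.3% of all genes. DESeq2 called 2 of 10, against 6.98% of genes, namely Per1 (adjusted p = 0.000576) and Cry2 (adjusted p = 0.0344), and the same pair was called by limma-voom with quality weights, against 8.57% of genes. The samples did not overlap for 1 of 10 genes that was higher (Per1, against 6.23% of all genes) and for 0 that were lower (against 5.59%). Per1 was called in 4 of 18 alternative settings, with adjusted p-values from 0.000576 to 0.217. Without SAP libraries 1 and 2, the log2 fold change was 1.52 for Per1 and 1.10 for Cry2, and it changed sign for Arntl (0.89) and Clock (0.83). In the same setting it was 1.52 for Npas2 and -0.80 for Dbp. Without JZL184 library 3 it was 0.61 for Per3 and 0.98 for Cry2, and without SAP library 2 it was -0.32 for Clock. Without JZL184 library 1, edgeR called Per1, at a log2 fold change of 1.96, against 4.21% of genes. The count of clock genes without overlap was 3 without JZL184 library 1, against 26.5% of all genes, and 3 without JZL184 library 2, against 13.6%. It was 2 without SAP library 1, against 14.2%, and 2 without SAP library 4, against 20.6%. The median absolute log2 fold change of the clock genes was 0.66, against 0.49 over all genes tested.

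The comparison of JZL184 with control rats shares the control samples with the first and the JZL184 samples with the second comparison. The treated rats differed from the controls in both disease and drug, and the part of the hour of killing was not tested. Npas2 was higher by 2.14 ± 0.65 on the log2 scale (4.40-fold, SE, n = 4 and 2), Per1 by 1.57 ± 0.37 (2.97-fold), Arntl by 1.51 ± 0.59 (2.86-fold) and Clock by 1.23 ± 0.35 (2.35-fold). Dbp and Nr1d1 were lower by a log2 fold change of -1.44 ± 0.48 and -1.0 ± 0.46. Per3 (0.90 ± 0.60), Per2 (0.38 ± 0.37), Cry2 (0.31 ± 0.51) and Cry1 (0.24 ± 0.43) differed by less than 2 SE. In edgeR 0 of 10 clock genes were called, against 2.16% of 15916 genes, with an adjusted p of 0.0633 for Per1, 0.0861 for Clock, 0.0965 for Npas2, 0.115 for Dbp, 0.154 for Arntl and 0.207 for Nr1d1. At an unadjusted p below 0.05 there were 5 of 10 (Arntl, Clock, Npas2, Per1 and Dbp) against 26.3% of all genes, and DESeq2 called 4 of 10 (Clock, Npas2, Per1 and Dbp) against 10.8%. The samples did not overlap for 4 of 10 genes that were higher (Arntl, Clock, Npas2 and Per1, against 18.9% of all genes) and 2 that were lower (Nr1d1 and Dbp, against 19.3%). Taking control libraries 1 and 2 as separate samples treats nearly the same library as independent samples. In that setting edgeR called 5 of the 10 genes (Arntl, Clock, Npas2 and Per1 higher, Dbp lower), against 18.1% of genes. Without JZL184 library 1 edgeR called Per1 (log2 fold change 1.75), against 12% of genes, and without JZL184 library 3 it called Per1 (1.36) and Npas2 (2.40), against 5.46%. Without JZL184 library 4 the log2 fold change was 1.55 for Npas2 and 0.92 for Arntl, and without JZL184 library 3 it was 0.27 for Per3. The neutrophil genes summed to 1.1 and 2.3 FPKM in the control samples and to 12.4 to 245.5 FPKM in the JZL184 samples, and the epithelial genes to 18090.9 and 19689.5 against 5200.3 to 14582.4 FPKM. The part of these cells in the clock gene values was not tested. The median absolute log2 fold change of the clock genes was 1.12, against 0.59 over all genes tested.

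**Figure D2:**
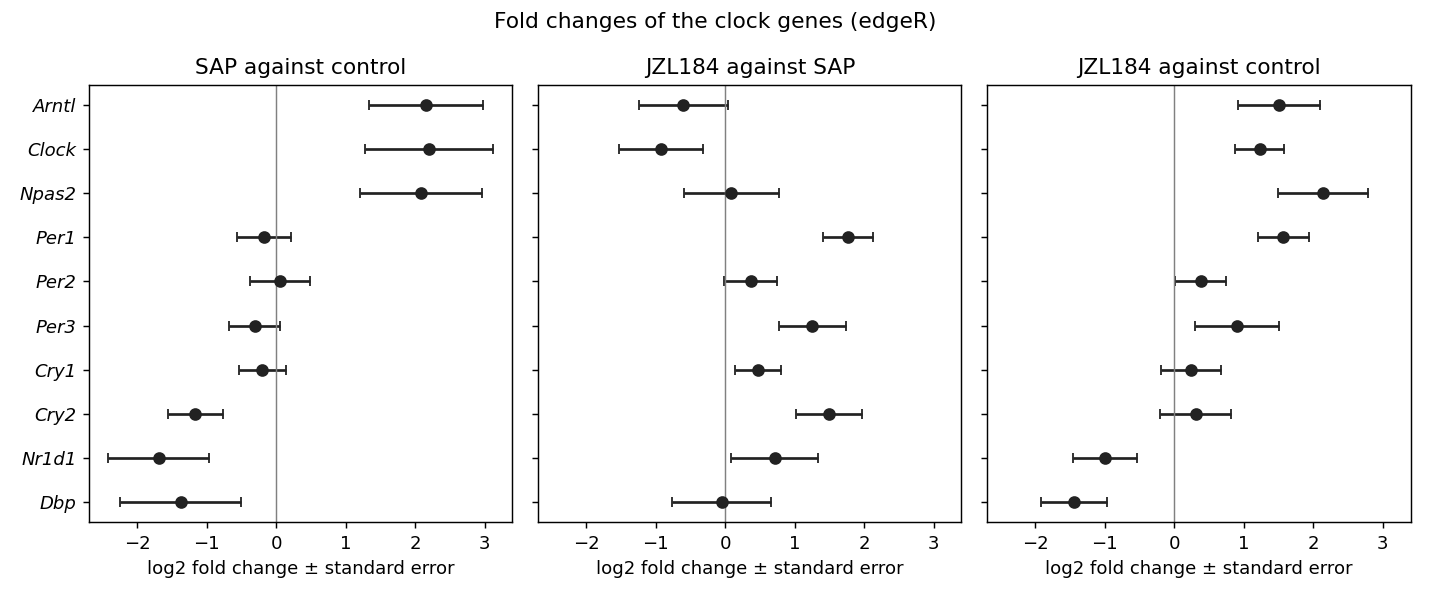
Log2 fold change of the 10 clock genes in each of the 3 comparisons (points, edgeR estimate, with bars of 1 standard error), with a line at 0. Activators lie to the right and Nr1d1 and Dbp to the left of 0 in both comparisons with the controls, and Per1 has the narrowest bar among the larger differences of JZL184 against SAP (1.77 ± 0.36).

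Further genes of the clock, its regulators and its outputs were counted from a list of 25. In edgeR 0 of 23 tested were called in SAP against control and 0 of 22 in JZL184 against SAP, against 0% of all genes in both. In JZL184 against control 1 of 24 was called, against 2.16% of all genes, and a count this small does not set the list apart. This gene was Bhlhe40 (DEC1), a repressor that competes with the ARNTL pair at E-boxes, which rose by 2.27 ± 0.30 on the log2 scale (SE, edgeR adjusted p = 0.0167). Its log2 fold change lay between 2.16 and 2.37 in 17 alternative settings, 12 of which called it. The edgeR call was lost without the combined control sample (adjusted p = 0.35), without control library 3 (adjusted p = 0.167) and without JZL184 library 2 (adjusted p = 0.0545). Bhlhe40 stood at 7.315 and 7.97 FPKM in the control samples, at 21.40, 32.63, 14.70 and 10.55 FPKM in SAP libraries 1 to 4 and at 31.49, 37.44, 44.67 and 36.61 FPKM in JZL184 libraries 1 to 4. All SAP samples lay above the controls, and JZL184 libraries overlapped the SAP group through SAP library 2 and JZL184 library 1. It differed by 1.17 ± 0.43 in SAP against control (edgeR adjusted p = 0.459) and by 1.13 ± 0.32 in JZL184 against SAP (edgeR adjusted p = 0.116). Nfil3, the repressor at D-boxes, was at 7.19 and 6.05 FPKM in the control samples, 7.98 to 11.43 in the SAP samples and 7.73, 26.67, 22.42 and 26.22 FPKM in JZL184 libraries 1 to 4. Nfil3 differed by 1.24 ± 0.40 in JZL184 against SAP (edgeR adjusted p = 0.146) and by 1.64 ± 0.54 against control (edgeR adjusted p = 0.114). JZL184 library 1 lay below all SAP samples, and the other JZL184 libraries lay above them. Rora, a receptor that activates Arntl through ROR elements, was between 0.065 and 0.61 FPKM in all samples and differed by 1.84 ± 0.56 in JZL184 against control (edgeR adjusted p = 0.0961). Hlf, a relative of DBP, and Usp2, a deubiquitinase under clock control, differed by -1.62 ± 0.56 and -1.22 ± 0.46 in SAP against control (edgeR adjusted p = 0.459 for both). Tspan4, a tetraspanin, differed by 1.27 ± 0.46 in JZL184 against SAP (edgeR adjusted p = 0.174).

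Because Arntl and its targets peak at opposite phases, their levels were compared within groups, as deviations of log2 CPM from the group means. Arntl and Dbp ran opposite to each other over the 10 samples, with Pearson's r = -0.90 (exact two-sided permutation within groups, p = 0.0026, adjusted over 3 relations 0.00781) and Spearman's rho = -0.94 (permutation p = 0.00347, adjusted 0.0104). Without the 2 samples farthest from the median of Arntl, JZL184 library 4 and SAP library 2, r was -0.87. Without SAP library 4 r was -0.86 with an adjusted permutation p of 0.0521, and without JZL184 library 4 it was -0.89 with an adjusted permutation p of 0.104, whereas without SAP library 1 or 2 it was -0.95. With the trend on gene length removed, an alternative chosen after seeing the data, r was -0.86 (permutation p = 0.00434, adjusted 0.013). Among 16510 other genes, 0.993% had an r with Arntl within groups at least as low as that of Dbp. The clock genes were chosen with earlier results of these data known, which the p-values do not take into account. SAP libraries 1 and 2, the highest on the first principal component at 90.8 and 92.5, were not left out together. The parts of tissue composition and of the hour of killing were not tested. Arntl showed no such relation with Nr1d1 (r = -0.37, exact permutation p = 0.549, adjusted 0.759; rho = -0.44, permutation p = 0.314, adjusted 0.471) or with Per3 (r = -0.12, permutation p = 0.759, adjusted 0.759; rho = -0.01, permutation p = 1, adjusted 1). Without the same pair of samples r was 0.04 for Nr1d1 and 0.02 for Per3.

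**Figure D3:**
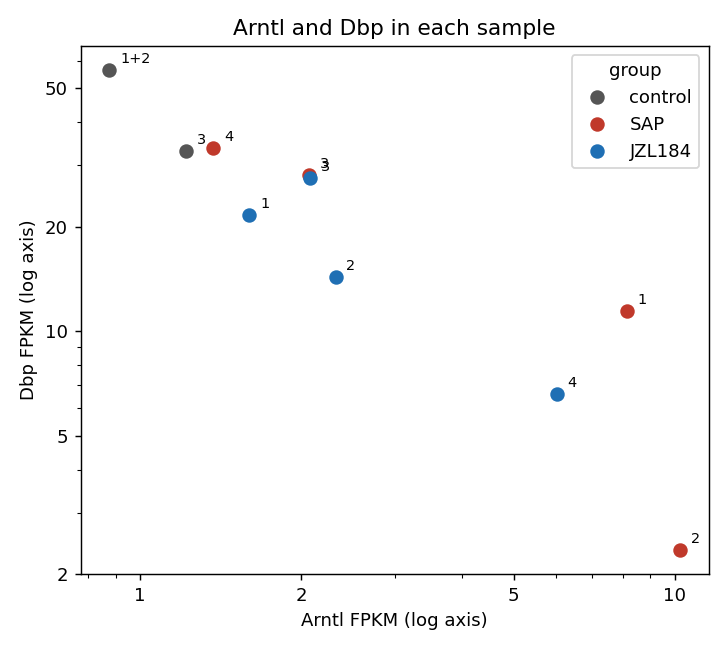
Arntl against Dbp in each of the 10 samples (FPKM, log axes), coloured by group and numbered by library. The points run from the combined control sample at 0.875 FPKM of Arntl and 56.48 of Dbp down to SAP library 2 at 10.23 and 2.35 FPKM, and SAP and JZL184 samples are mixed along the way.

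The ratio of the output gene to the activator is given per sample as a description, without a comparison to other pairs of genes. Dbp was 64.5 and 27.1 times as high as Arntl in FPKM in the control samples. The ratio was 1.40, 0.23, 13.6 and 24.5 in SAP libraries 1 to 4 and 13.5, 6.16, 13.3 and 1.09 in JZL184 libraries 1 to 4. All SAP and JZL184 samples were below both controls, but SAP library 4 (24.5) lay close to control library 3 (27.1). Arntl alone already did not overlap with the controls, where 23.2% (SAP) and 38.3% (JZL184) of all genes did not overlap in CPM. SAP library 2 was the one sample in which Arntl exceeded Dbp, and the ranges of the SAP and JZL184 groups overlapped. JZL184 library 4, the lowest of its group in this ratio, also had the lowest sum of smooth muscle genes of all samples (239.7 FPKM). SAP library 2, with the lowest ratio of all, had a sum of 615.6 FPKM. JZL184 libraries 1 and 3, with ratios of 13.5 and 13.3, had sums of 713.1 and 1594.6 FPKM. The part of smooth muscle in the ratio was not tested.

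The remaining pairs of clock genes are given as descriptions over the same 10 samples, which share library and depth. Within groups r was 0.84 for Arntl and Clock (reached by 3.1% of other genes), 0.88 for Arntl and Npas2 (reached by 1.36%) and 0.75 for Clock and Npas2 (reached by 16.9%). Dbp ran opposite to Clock (r = -0.88) and to Npas2 (r = -0.95). Among other genes, 0.0485% had an r with Npas2 as low as that of Dbp, but 7.27% had an r with Clock as low. Per1 varied with Cry2 (r = 0.89, reached by 0.327% of other genes) and Per2 with Per3 (r = 0.81, reached by 0.351%), where JZL184 library 3 was the highest sample in each of these genes. Nr1d1 varied with Dbp (r = 0.73, reached by 3.89% of other genes), and Cry1 had no r above 0.55 with another clock gene.

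**Figure D4:**
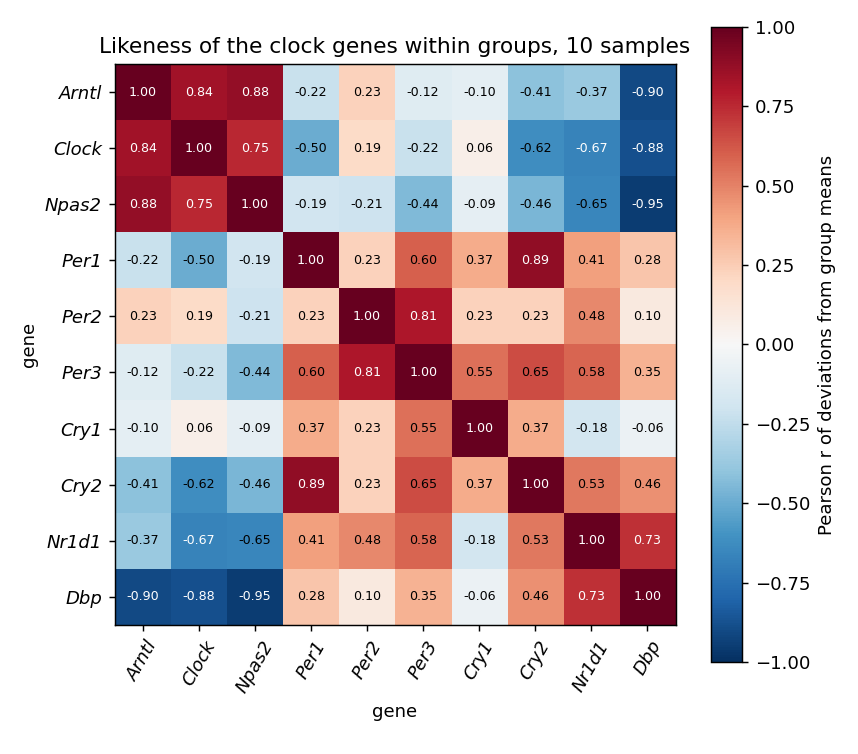
Pearson's r between each pair of the 10 clock genes, over the deviations of 10 samples from their group means (colour from -1 in blue to 1 in red, value in each cell). The activators Arntl, Clock and Npas2 form a positive block and oppose Dbp, and Per1, Per3 and Cry2 form another positive block.

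Over all 10 samples and 16478 genes outside both lists, the genes most like Arntl in log2 CPM were Washc2c (r = 0.988), Borcs7 (0.976), Usp53 (0.965), Gng12 (0.959) and Ptprb (0.956). Those least like it were Icmt (r = -0.967), Miip (-0.962) and Plcg1 (-0.957). The genes most like Dbp were Stoml1 (r = 0.952), Elac2 (0.945), Miip (0.945), Fez1 (0.941) and Coq10a (0.939). Miip was thus among the genes nearest to Dbp and farthest from Arntl.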

How the data were processed

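Ileal RNA was sequenced as stranded mRNA libraries. The authors trimmed reads with FASTX-Toolkit, aligned them to mRatBN7.2 with HISAT2 and deposited the count of uniquely aligned reads per gene, and the authors calculated FPKM from these, given to 2 decimals. For the counting tool and the annotation, the sources used here give no name. Groups follow the labels. Reads of control libraries 1 and 2 were summed and their FPKM averaged.

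Genes were compared on counts with edgeR 4.0.16 (R 4.3.3, TMM, minimum count 10, quasi-likelihood test), with DESeq2 1.42.0, limma-voom 3.58.1, other filters, scalings, sample sets, a replicate block and gene length offsets (span 0.3) as alternatives. The fit was tested on simulated data. Relations within groups used 1152 permutations. With 26341299 or more reads a library, the spread between samples set the precision. The clock genes and lists were chosen with earlier results of these data known. The named genes are the 10 clock genes, the 3 with the smallest p among 25 further clock genes per comparison, and the genes most like Arntl and Dbp. Fold changes are on TMM-normalized counts, and levels are deposited FPKM.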

Additional observations from a re-analysis of the deposited data

Results flagged for a closer look

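Of 20 sets of 4 libraries examined (the 10 clock genes in the SAP and JZL184 groups), 2 had a library whose gap to its nearest neighbour, divided by the range of the group, was above Dixon's 95% critical value. For normally distributed values, chance gives such a gap in about 1 of 20 sets. The gaps were taken on FPKM without a log, and the log scale was not examined. Arntl in JZL184 library 4 stood at 6.02 FPKM, with the other JZL184 libraries between 1.6 and 2.32 FPKM and a gap of 0.837 of the range. Per2 in SAP library 1 stood at 6.36 FPKM, with the other SAP libraries between 2.49 and 2.67 FPKM and a gap of 0.953 of the range.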

How the results depend on the processing

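Of 707 values, 597 were counted as unchanged. For log2 fold changes and r this means the same sign and side of the threshold, and for counts an equal or similar number. Sizes could still change, as for Arntl in SAP against control, from 2.16 to 0.65 without SAP libraries 1 and 2. In 25 values the sign turned. The cause of each was not tested. Clock genes called were 0 in SAP against control except with DESeq2 on 3 separate controls (5), of which libraries 1 and 2 are nearly the same. They were 2 with DESeq2, 2 with limma-voom and 1 with all 3 groups in 1 fit for JZL184 against SAP, and 4, 5, 1 without a filter on low counts, 5 with separate controls and 6 with separate controls in DESeq2 for JZL184 against control. Leaving out each SAP or JZL184 library gave 0 to 0, 0 to 1 and 0 to 2 clock genes called. The shares of all genes called were 0 to 0.0189%, 0 to 4.21% and 0.158 to 12%. Leaving out each library, controls included, gave 4 to 7, 1 to 3 and 6 to 6 clock genes without overlap. The shares of all genes without overlap moved too, over 25.2 to 54.9%, 13.6 to 26.5% and 41.3 to 58.3%. Among all genes, calls in SAP against control were 208 with DESeq2, 21 with limma-voom, 14 without the filter, 4 in 1 fit, 74 without SAP libraries 1 and 2, 33 with separate controls and 1434 with separate controls in DESeq2, and 0 to 3 without each library. In JZL184 against SAP they were 1283 with DESeq2, 1312 with limma-voom, 27 without the filter, 207 in 1 fit, 34 with gene length offsets and 0 to 655 without each library. In JZL184 against control they were 1899 with DESeq2, 2898 with limma-voom, 929 without the filter, 2800 with separate controls, 3498 with separate controls in DESeq2 and 0 to 1867 without each library.

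The log2 fold changes that turned differed in size. In SAP against control Per1 was 0.07 without SAP libraries 1 and 2, Per2 was -0.01 with limma-voom, -0.32 with length offsets, -0.30 without SAP libraries 1 and 2 and -0.34 to 0.20 without each library, and Cry1 was -0.51 to 0.20. In JZL184 against SAP Arntl was 0.89 (SE 0.58) and Clock 0.83 (SE 0.33) without SAP libraries 1 and 2, so that Clock lay more than 2 SE from 0. Npas2 was -0.50 to 1.09 without each library, and Dbp was 0.36 with limma-voom and -0.43 to 0.46 without each library. In JZL184 against control Cry1 was -0.09 to 0.64 and Cry2 -0.19 to 0.55. Leaving out each library gave r from -0.95 to -0.86 for Arntl and Dbp, -0.63 to 0.22 for Arntl and Nr1d1 and -0.29 to 0.09 for Arntl and Per3, the last 0.00 on log2(FPKM + 0.1).

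Replicate numbers of the labels were shared by groups, but libraries with the same number did not deviate together (r from -0.43 to 0.12 over 8 pairs). A replicate block called 0 clock genes in each comparison, with 147, 0 and 66 genes called among all tested, and 257, 0 and 9 with the block and gene length offsets. Dbp in JZL184 against SAP was 0.48 with the block and 0.34 with block and offsets, and Per2 in SAP against control was -0.12 with both. Against control, Npas2 was 1.12 (SAP) and 1.16 (JZL184) with the block and 0.71 and 0.84 with both, Arntl in JZL184 was 0.68 and 0.54, Clock in SAP was 1.19 with both, and Dbp in JZL184 was -0.77 with both. The Bhlhe40 call in JZL184 against control was lost with the block (edgeR adjusted p = 0.102) and with both (0.177).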
